A study of Mus musculus with 2 samples.

Results

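Open chromatin between genes, just outside promoters, is described here in mouse hippocampus as measured by DNase-seq, in which DNase I cuts accessible DNA and the cut ends are sequenced. A site was taken from the longer of the authors' peak lists of each replicate. It had to overlap no gene body of any type in GENCODE M21, lie more than 1 kb from the start of any annotated transcript, and have its midpoint more than 1 kb and at most 10 kb from the nearest start of a protein-coding gene. Of 115072 peaks in replicate 1, 6009 (5.22%) met this rule, and of 95711 in replicate 2, 4867 (5.09%) did. A site counted as shared where member peaks of both replicates overlapped by at least 1 bp, which gave 3654 shared sites.

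The study holds 1 group with 2 replicates, and so no comparison of conditions. The tissue came from B6CASTF1/J males aged 14 days, an F1 cross of C57BL/6 and CAST/EiJ mice. The labels call it a layer of the hippocampus without naming the layer, mention 3 males for each replicate and give both replicates the same donor identifier. The spread between the replicates may therefore be partly technical. Reads of the hybrid were placed on mm10 (GRCm38), the C57BL/6 reference, and the tissue is a mixture of cell types.

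DNA that binds regulatory proteins is wrapped less tightly in nucleosomes, and DNase I cuts it more often. Outside promoters, such stretches include enhancers, which activate genes from a distance, silencers, and sites of CTCF, the zinc-finger protein that anchors chromatin loops and separates neighbouring domains. Within an open stretch a bound protein can shield its own letters, which leaves a short gap in the cuts called a footprint. A site next to a gene need not act on that gene, and the nearest gene is given here only to name a place.

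The sequences that recur through the results are shown first, from the GRCm38.p6 reference. The following 5 stretches carry the CTCF core in the 5 shared sites with the highest mean value that hold it. Each is written 5′ to 3′ on the strand of the motif, with the 12 letters that matched the core in capitals and 20 bases on each side.

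Ppp1r1b (chr11:98342767-98342818, + strand): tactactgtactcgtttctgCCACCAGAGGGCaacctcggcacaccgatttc
Olfr750 (chr14:51064941-51064992, - strand): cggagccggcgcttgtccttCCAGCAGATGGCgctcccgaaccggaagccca
Stard10 (chr7:101310770-101310821, + strand): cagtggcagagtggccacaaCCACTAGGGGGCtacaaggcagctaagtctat
Znfx1 (chr2:167072150-167072201, + strand): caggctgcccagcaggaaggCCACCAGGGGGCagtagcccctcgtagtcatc
Psrc1 (chr3:108389432-108389483, - strand): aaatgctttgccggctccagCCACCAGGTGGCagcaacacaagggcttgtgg

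In all 5 stretches the whole of the 12-letter match lay in a footprint in both replicates. A second set shows the highest shared sites that hold some of the shorter motifs discussed below, again with the matched letters in capitals.

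CRE at Shf (chr2:122377483-122377530, + strand): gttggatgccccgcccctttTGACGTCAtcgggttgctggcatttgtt
EGR at Kcnn1 (chr8:70865672-70865720, + strand): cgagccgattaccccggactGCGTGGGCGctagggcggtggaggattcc
GC box at Kcnn1 (chr8:70865756-70865804, - strand): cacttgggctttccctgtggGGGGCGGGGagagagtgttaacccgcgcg
NFI short site at Txn2 (chr15:77933905-77933950, + strand): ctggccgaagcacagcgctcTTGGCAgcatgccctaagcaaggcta
AP-1 at Trappc9 (chr15:73067687-73067733, + strand): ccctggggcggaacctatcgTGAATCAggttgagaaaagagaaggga

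The EGR, GC box and NFI matches lay wholly within footprints in both replicates. Of the 8 CRE letters, 0 in replicate 1 and 2 in replicate 2 were footprinted, and none of the AP-1 letters was in either. The last set gives the 200 bp at the middle of 4 shared sites on the + strand, with capitals where a footprint of both replicates covered the base. Pllp is the site with the highest value, and Slc17a7 is the highest site with the T-box motif. Mog and Cx3cr1 stand for genes whose site was higher than their promoter, and these were chosen after their values were seen.

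Pllp (chr8:94704061-94704260): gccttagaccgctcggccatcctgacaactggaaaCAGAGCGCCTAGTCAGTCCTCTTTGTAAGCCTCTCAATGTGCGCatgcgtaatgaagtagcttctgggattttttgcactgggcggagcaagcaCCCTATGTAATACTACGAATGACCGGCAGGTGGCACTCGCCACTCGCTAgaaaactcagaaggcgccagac
Slc17a7 (chr7:45162191-45162390): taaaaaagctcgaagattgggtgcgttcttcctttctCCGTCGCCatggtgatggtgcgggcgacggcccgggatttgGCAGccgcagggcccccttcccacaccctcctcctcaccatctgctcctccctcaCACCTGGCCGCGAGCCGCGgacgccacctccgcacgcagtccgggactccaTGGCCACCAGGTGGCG
Mog (chr17:37028811-37029010): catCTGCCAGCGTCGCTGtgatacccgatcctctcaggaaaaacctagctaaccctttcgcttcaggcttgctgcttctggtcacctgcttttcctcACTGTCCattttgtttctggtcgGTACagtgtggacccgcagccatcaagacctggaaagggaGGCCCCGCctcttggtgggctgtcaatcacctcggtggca
Cx3cr1 (chr9:120073251-120073450): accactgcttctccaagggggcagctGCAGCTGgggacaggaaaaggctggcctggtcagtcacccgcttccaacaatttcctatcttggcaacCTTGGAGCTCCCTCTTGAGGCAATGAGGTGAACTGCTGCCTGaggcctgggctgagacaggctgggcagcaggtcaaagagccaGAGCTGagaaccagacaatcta

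Footprints of both replicates covered 93 of the 200 bases at Pllp, 47 at Slc17a7, 34 at Mog and 55 at Cx3cr1.

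The labelled tissue was checked at promoters. The 6 regulators of hippocampal development and identity that were examined, Prox1, Emx2, Lhx2, Zbtb20, Neurod2 and Neurod6, each had a peak within 1 kb of a start of a coding transcript in both replicates. The 4 liver and muscle genes Alb, Apoa1, Acta1 and Ckm had no such peak listed in either. Counting the starts of all transcripts, noncoding ones included, a promoter peak was listed in both replicates for 3 of 16 liver and 3 of 16 striated muscle genes, among them Ckm (1.78 and 2.80), Apoh (3.66 and 4.93) and Actn3 (4.94 and 6.74). The authors' value per peak has no stated unit and came in whole multiples of 0.00707 in replicate 1 and 0.00815 in replicate 2. It is used here to describe and rank peaks within a list, and the median site held 92 such steps in replicate 1 and 99 in replicate 2.

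The sites were narrow and of middling strength. Their median width was 200 bp in both replicates, and together they covered 1.26 Mb in replicate 1 and 1.01 Mb in replicate 2. Their median value was 0.651 in replicate 1 and 0.807 in replicate 2, against 0.594 and 0.734 over all peaks. The median site stood at percentile 55.0 of its list in replicate 1 and 54.6 in replicate 2. Promoter peaks, with a midpoint within 1 kb of any start, had medians of 0.990 and 1.30, and peaks in gene bodies had medians of 0.544 and 0.652. Intergenic peaks 10 to 100 kb from a coding start stood at 0.530 and 0.636, and those beyond 100 kb at 0.382 and 0.440. The sites thus lay between promoters and all other classes in both replicates. Few reached the top of the list: 8.02% of the sites in replicate 1 and 6.41% in replicate 2 were above the 90th percentile, against 26.5% and 25.5% of promoter peaks.

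The limits of the rule did not mark a step in median value at the far side. Sites 9.5 to 10 kb from a coding start stood at 0.626 (replicate 1) and 0.754 (replicate 2) in the median, and intergenic peaks in the next 500 bp beyond 10 kb at 0.636 and 0.742. The share overlapped by a peak of the other replicate was 61.3% and 77.4% inside the limit. Just beyond it this share was higher, at 70.9% and 84.3%. At the near side, sites 1 to 1.1 kb away had medians of 0.746 and 1.04. Peaks outside genes that lay 0.9 to 1 kb from a start had lower medians of 0.537 and 0.717.

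Sites were most crowded close to the start. Per Mb of sequence that the rule allows, there were 62.1 peaks in replicate 1 and 50 in replicate 2 at 1 to 2 kb, 44.4 and 35.6 at 2 to 3 kb, 42.4 and 34.3 at 3 to 5 kb, and 38.2 and 31.1 at 5 to 10 kb. Beyond the limit the density was nearly level at first, with 37.1 and 29.4 per Mb at 10 to 20 kb, and it was 18.6 and 13.6 per Mb beyond 100 kb. The excess near the start was on the upstream side. Upstream densities were 63.8 in replicate 1 and 50.6 in replicate 2 at 1 to 2 kb and 34.3 and 28.3 at 5 to 10 kb. Downstream, where the rule leaves only sequence beyond the end of the gene, the densities were 44.9 and 43.5 at 1 to 2 kb, from 66 and 64 sites, and 47.3 and 37.6 at 5 to 10 kb. The median value changed little over these distances, from 0.658 and 0.848 at 1 to 2 kb to 0.647 and 0.783 at 5 to 10 kb.

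**Figure D1:**
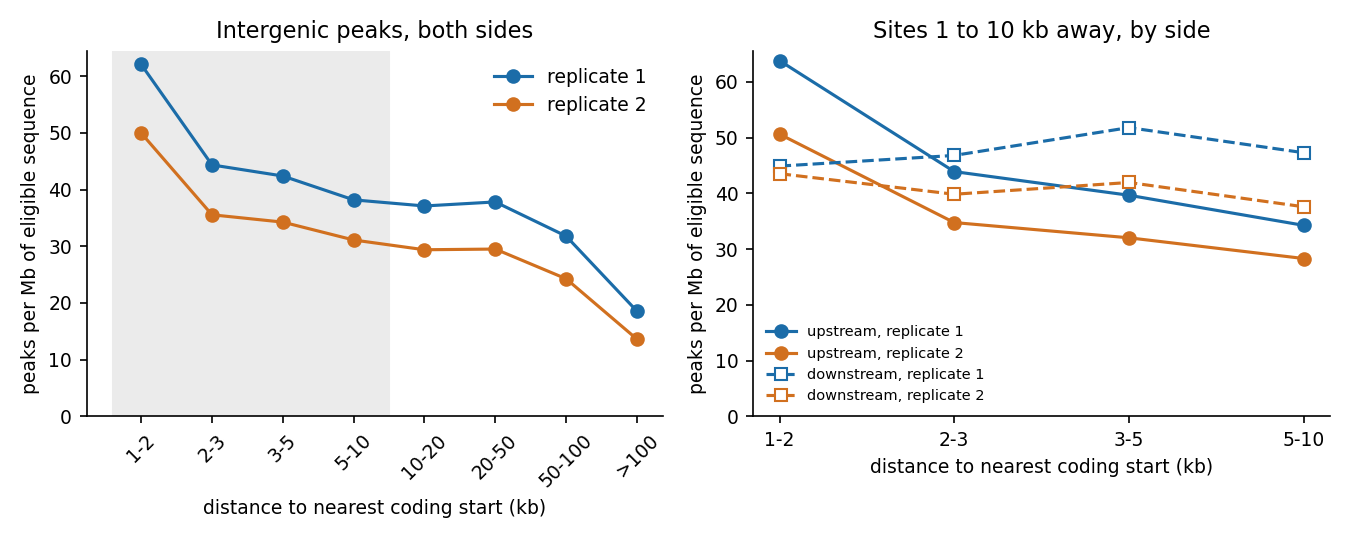
Intergenic peaks per Mb of eligible sequence (y axis) against distance to the nearest coding start in kb (x axis), for replicate 1 (blue) and replicate 2 (orange); the shaded bins on the left are the sites described here, and the right panel splits them into upstream (filled, solid) and downstream (open, dashed). Upstream density was 63.8 and 50.6 per Mb at 1 to 2 kb and 34.3 and 28.3 at 5 to 10 kb, while the downstream lines stay between 37.6 and 51.8.

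The layout of the neighbouring genes also went with density. Gaps between the ends of convergent genes held 56.6 sites per Mb in replicate 1 and 45.3 in replicate 2, gaps between divergent starts 43.7 and 35.7, and gaps between genes on the same strand 39.4 and 31.8. Among autosomes the density was highest on chromosome 11, with 62.6 and 50.1 per Mb. The X chromosome, single in males, held 118 sites in replicate 1 and 98 in replicate 2, or 14.4 and 11.9 per Mb against 45.1 and 36.5 on the autosomes. Their median values on X were 0.364 and 0.424 against 0.658 and 0.815. The density of all peaks on X is not given here, so the lower density is not shown to be particular to the sites. The part of copy number in it was not tested. No site was listed on Y. Of the sites, 28.8% in replicate 1 and 28.9% in replicate 2 lay within 500 bp of another. In all, 213 and 167 overlapped another peak of the same list that was also a site. The same shares over all peaks are not given here, so grouping is not shown to be particular to the sites.

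Strong sites were found in both replicates and weak sites often in 1. In the highest of 10 equal bins by value 99.3% of the replicate 1 sites and 99.8% of the replicate 2 sites were overlapped by a peak of the other replicate, and in the lowest bin 17% and 33.7%. A peak of any class in replicate 2 overlapped 64.0% of the replicate 1 sites (exact binomial 95% interval 62.8% to 65.2%, counting error only). A replicate 1 peak overlapped 78.9% of the replicate 2 sites (77.7% to 80%). All peaks stood at 65.3% and 78.4%. Across the 3654 shared sites the values of both replicates had a Spearman's rho of 0.931, given as a description, since these sites were found in both. The median ratio of replicate 2 to replicate 1 was 1.1, with quartiles of 0.940 and 1.27, and 190 shared sites (5.2%) differed by more than 25 percentile points in rank. Sites without an overlapping peak in the other replicate numbered 2164 in replicate 1 and 1027 in replicate 2. Their median values were 0.410 and 0.457, against 0.933 and 1.00 for the sites that were overlapped.

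**Figure D2:**
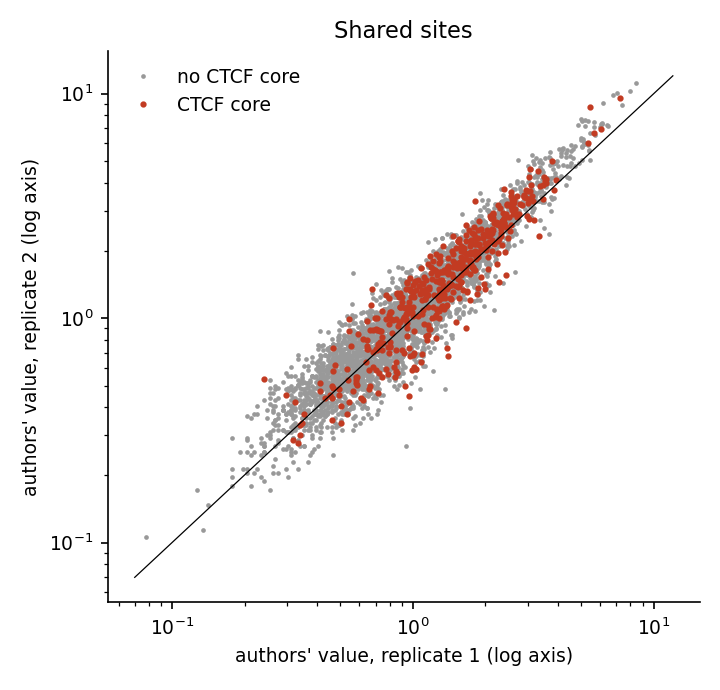
Authors' value of each of the 3654 shared sites in replicate 1 (x axis) and replicate 2 (y axis), both on log axes, with the line of equal values; red points hold the CTCF core in both replicates and grey points do not. The points follow the line with a median ratio of 1.1, and the red points lie mostly in the upper part.

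The strongest sites seen in 1 replicate only were not weak. In replicate 1 they lay near Borcs6, a lysosome positioning gene (2.97, chr11:69062701-69062920), Atp5h, a subunit of the mitochondrial ATP synthase (2.92), and Plxdc1 (2.46). In replicate 2 they lay near Dnase1l3, a secreted nuclease (3.29), and Gng2, a G protein subunit (1.65), among others. These 5 were in the shorter peak list of their replicate. They also overlapped a stretch with a cut rate that the authors listed at a false discovery rate under 0.05 in the other replicate, although no peak was listed there. Over all sites seen in 1 replicate, 250 of 2164 (11.6%) and 224 of 1027 (21.8%) had such a stretch in the other. The Borcs6 site ends just before a shared site at chr11:69062961-69063260 with values of 5.35 and 7.53.

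Most sites held a footprint, at a share only slightly above that of all peaks. A footprint lay wholly within 77.7% of the sites in replicate 1 (76.6% to 78.7%) and 77.5% in replicate 2 (76.3% to 78.6%), against 74.4% and 73.7% of all peaks and 64.2% and 60.8% of intergenic peaks beyond 100 kb. The share followed strength: in the lowest of 10 equal bins by value it was 24.3% and 24.7%, and in the highest 99.7% and 99.8%. The sites with the most footprints lay near Hcfc1, a transcriptional co-regulator (13 footprints in each replicate), Foxo3, a forkhead factor (11 and 14), and Dusp6, a phosphatase that acts on ERK (14 and 10). Next came Hes1, a Notch target (11 and 13), and Id2, an inhibitor of bHLH factors (13 and 10). These are broad sites, of 460 bp to 1280 bp, and a wider peak has more room for footprints.

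CTCF cores showed the widest gap in percentage points between the sites and nearby windows without a peak. The 200 bp at the midpoint was searched on both strands for 22 consensus motifs, and the CTCF core was present in 584 sites of replicate 1 (9.72%, 8.98% to 10.5%) and 503 of replicate 2 (10.3%, 9.49% to 11.2%). Windows of the same length moved by 1 kb to either side and overlapping no peak held it in 0.0751% and 0.116%. Among other classes the share was 1.75% and 1.69% at promoters, 5.05% and 5.29% in gene bodies, 7.05% and 7.76% at intergenic peaks 10 to 100 kb away, and 2.45% and 2.68% beyond 100 kb. Within the 10 to 100 kb class, the nearest peaks, 10 to 20 kb away, held it in 10.5% and 11.5%, slightly more often than the sites, so the share is not particular to them. The share was lower close to the start, at 7.30% and 7.33% at 1 to 2 kb, and reached 10.8% and 11.6% at 3 to 5 kb.

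The cores were footprinted and sat in strong sites. Of 587 core matches in replicate 1, 524 (89.3%) had at least 50% of their letters in a footprint, and so did 453 of 506 (89.5%) in replicate 2. Footprints covered 11.6% and 12.2% of all bases in the windows of all sites, with or without the core. The median value was 1.18 and 1.40 with the core and 0.615 and 0.758 without it. Of sites with the core, 84.1% in replicate 1 and 97.6% in replicate 2 were overlapped by a peak of the other replicate, against 61.8% and 76.7% without it. In the lowest bin of 10 by value 1.33% and 1.85% held the core, and in the highest 21.1% and 21.8%. Footprints were called from the same cuts as the peaks, so a strong site also gives more cuts from which to call one.

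**Figure D3:**
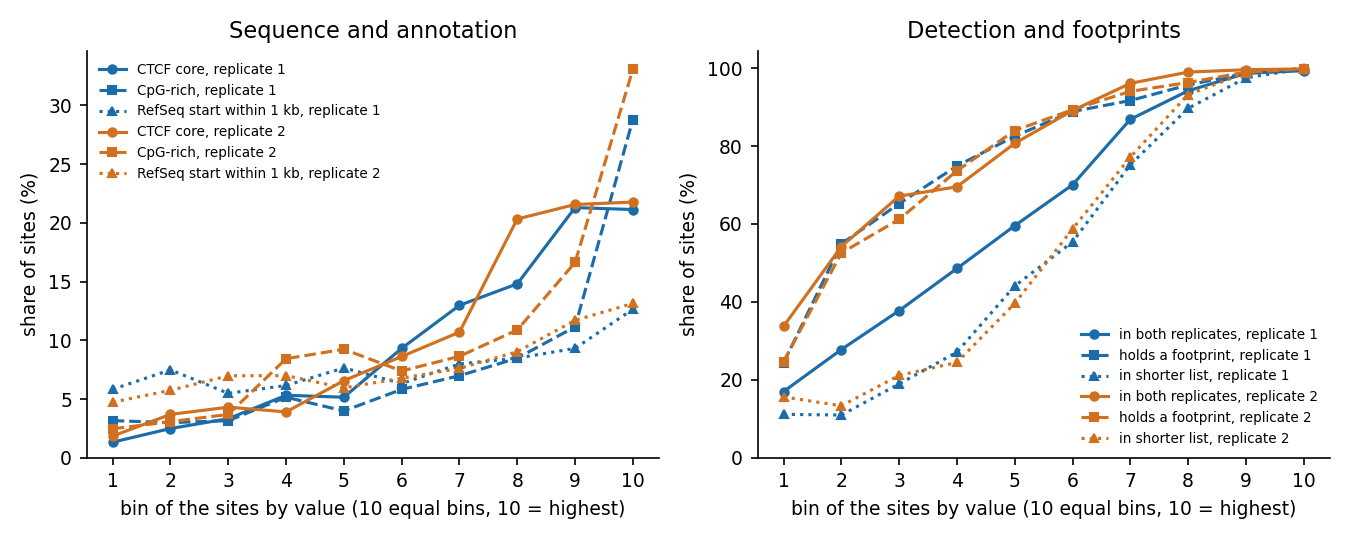
Share of sites in percent (y axis) in 10 equal bins of the authors' value (x axis, 10 the highest) for replicate 1 (blue) and replicate 2 (orange). The left panel gives the share with the CTCF core, the share that is CpG-rich and the share within 1 kb of a RefSeq start; the right panel gives the share overlapped by a peak of the other replicate, holding a footprint or in the shorter list. The CTCF share goes from 1.33% and 1.85% to 21.1% and 21.8%, and nearly all sites of bin 10 were in both replicates.

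Motifs of neuronal and glial factors were common but less specific to the open windows. The E-box CAGATG, read by proneural bHLH factors such as Neurod2, was in 20.9% of the sites in replicate 1 and 20% in replicate 2, against 15.1% and 15.2% of the moved windows and 29.6% and 28.8% of peaks beyond 100 kb. The short NFI site TTGGCA, part of the palindrome of nuclear factor I, was in 15.2% and 13.9%, against 9.31% and 9.54% of moved windows and 22.5% and 22.2% beyond 100 kb. AP-1 (TGANTCA), the motif of Fos and Jun dimers, was in 6.92% and 6.41%, against 5.51% and 5.40% of moved windows, 6.54% and 5.76% of all peaks and 8.32% and 7.49% beyond 100 kb. Over all peaks the E-box stood at 21.9% and 20.4% and the NFI site at 17.1% and 16%, so the shares in the sites were near or below those in all peaks. These short motifs were less often footprinted than CTCF: 18.5% and 21.3% of E-box matches, 20.3% and 18.9% of NFI matches and 7.89% and 6.46% of AP-1 matches. The CAGATG match of the Olfr750 site lies inside its CTCF core, as the letters printed above show, so its footprint is counted for both motifs.

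Rarer motifs were counted in the same windows. The CRE TGACGTCA, bound by CREB, was in 21 sites of replicate 1 and 24 of replicate 2 (0.349% and 0.493%), against 0.103% and 0.116% of moved windows, 1.47% and 1.54% of promoter peaks and 0.607% and 0.709% of all peaks. Of its matches 47.6% and 41.7% were footprinted. The GC box GGGGCGGGG was in 1.70% and 2.01%, against 0.835% and 0.880% of moved windows. Promoter peaks held it in 8.61% and 9.31% and all peaks in 3.12% and 3.78%. The EGR motif GCGTGGGCG was in 6 and 7 sites (0.0999% and 0.144%), a lower share than the 0.263% and 0.303% of all peaks. The RFX palindrome was in 20 and 15 sites (0.333% and 0.308%), against 0.0282% and 0.0232% of moved windows and 0.300% and 0.260% of all peaks. The motif of REST, the repressor of neuronal genes outside neurons, was in 10 and 8 sites and in none of the 10655 and 8637 moved windows, and in 0.0643% and 0.0721% of all peaks, against 0.166% and 0.164% of the sites. SOX (ACAATGG), homeobox (CTAATTA), forkhead (TGTTTAC) and TEAD (GGAATGT) motifs were no more frequent in the sites than in moved windows in either replicate. The sites had a median GC content of 51.5% in replicate 1 and 52.5% in replicate 2, against 46.5% in the moved windows, and the part of base composition in these shares was not tested.

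**Figure D4:**
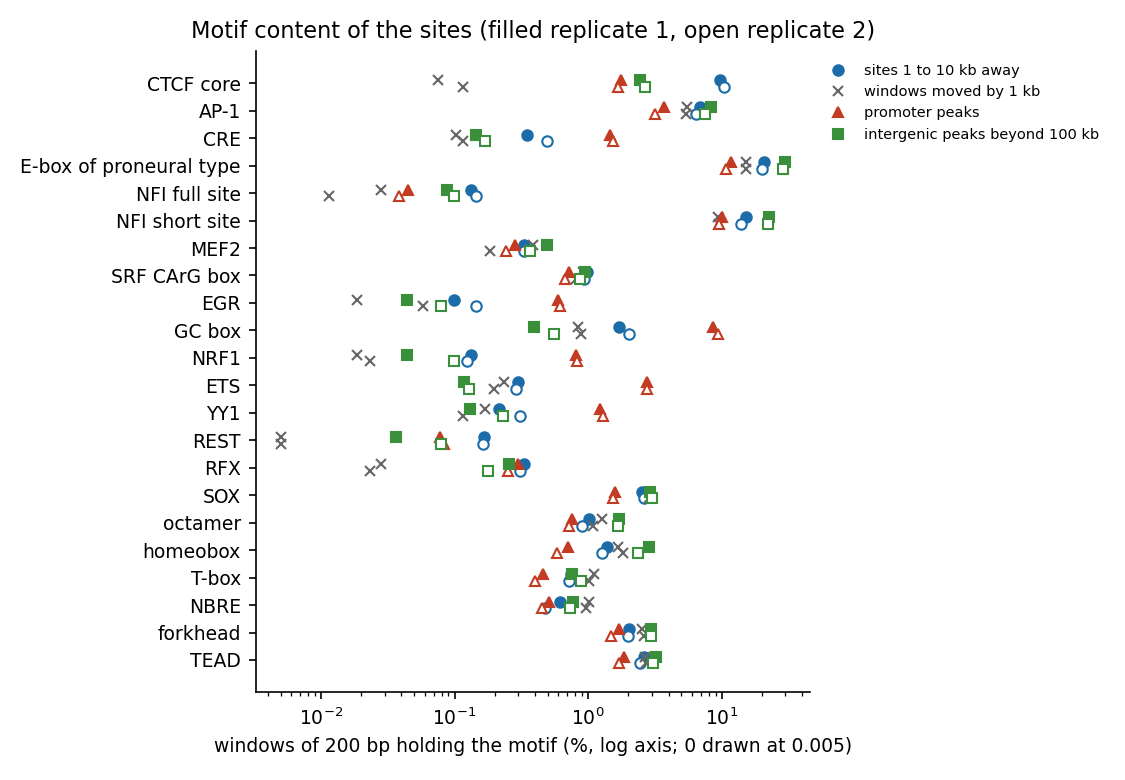
Share of 200 bp windows that hold each of 22 motifs (x axis, percent, log axis, with 0 drawn at the left end) for the sites described here (blue circles), windows moved by 1 kb (grey crosses), promoter peaks (red triangles) and intergenic peaks beyond 100 kb (green squares); replicate 1 filled, replicate 2 open. The CTCF core shows the widest gap in percentage points, from 0.0751% and 0.116% in moved windows to 9.72% and 10.3% in the sites.

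A minority of the sites resembled promoters. A window was called CpG-rich where its GC content was over 50% and its observed to expected CpG ratio over 0.6. This held for 7.97% of the sites in replicate 1 and 10.4% in replicate 2, against 18.2% and 22.5% of all peaks. The share was 51.7% and 56.2% of promoter peaks and 4.86% and 6.63% of peaks in gene bodies. Of intergenic peaks it was 4.56% and 6.15% at 10 to 100 kb and 1.87% and 2.65% beyond 100 kb. Among the sites it was 28.8% and 33.1% in the highest bin of 10 by value and 3.17% and 2.47% in the lowest. RefSeq lists starts that GENCODE M21 does not place there. A start of a RefSeq transcript lay within 1 kb of 465 sites in replicate 1 (7.74%) and 383 in replicate 2 (7.87%), while 2.75% of the eligible sequence lay that close to one. At 1 to 2 kb from the coding start these shares were 19.3% and 20.4% of the sites and 8.95% of the sequence, and at 5 to 10 kb they were 4.26% and 4.34% against 1.63%. In the highest bin 12.6% and 13.1% had a RefSeq start. Of the shared sites 284 of 3654 (7.77%) did, among them the strong sites near Zfp692, Kcnn1 and Tle2. Repeats masked at least 50% of the window in 4.98% and 4.46% of the sites, against 2.53% and 2.47% of all peaks.

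The shared site with the highest mean value lay 7.88 kb upstream of Pllp, a gene for a myelin membrane protein, with 8.41 in replicate 1 and 11.2 in replicate 2. Its letters are shown above, and none of the 22 motifs matched in its window. Only exact matches to a consensus were counted, so near matches were missed. Starts of tRNA genes were not among the RefSeq starts used, so a tRNA gene at a site would not have been seen. The promoter of Pllp stood at 0.919 and 1.31, so the site was higher in both. The next was 1.32 kb upstream of Ptma, which encodes a small acidic nuclear protein, at 7.97 and 10.3, against 6.08 and 7.03 at the promoter. Then came a site 4.48 kb upstream of Zfp692, a zinc-finger gene, at 7.01 and 10.1, and 5.62 kb upstream of Ppp1r1b, which encodes a phosphatase inhibitor regulated by dopamine, at 7.21 and 9.60. The Ppp1r1b site at chr11:98342661-98342900 holds the first CTCF core shown above, and its promoter stood at 1.29 and 2.01. Sites near Txn2, a mitochondrial thioredoxin (6.80 and 9.83), and Kcnn1, a calcium-activated potassium channel (7.39 and 8.86), followed. The Kcnn1 site spans 480 bp with 9 and 10 footprints and holds EGR, GC box and NRF1 motifs. Shf, an adaptor protein (6.15 and 9.08), Olfr750, an olfactory receptor (5.42 and 8.73), Cirbp, a cold-inducible RNA-binding protein (6.42 and 7.23), and Tle2, a corepressor (6.48 and 7.14), completed the 10. At Tle2 no promoter peak was listed in either replicate, and at Olfr750 one of 0.318 was listed in replicate 1 only.

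Genes differed in how many sites lay near them. Of 17824 protein-coding genes with any eligible sequence, 2854 (16.0%) were the nearest gene of at least 1 shared site: 2266 of 1 site, 436 of 2 and 152 of 3 or more. The 4 genes with the most had 6 each. Tnrc18 had all 6 upstream, from 1.08 to 5.85 kb, Trim27, a ubiquitin ligase, had all 6 upstream between 6.19 and 9.51 kb, and the neural transcription factor genes Pou3f2 and Bhlhe22 had 4 of their 6 upstream. Genes with 5 included Dhx37, an RNA helicase, Id2, Neurod2 and Arl8a, a lysosomal GTPase. In all, 8 genes had 5 sites, so the 10 genes taken by the naming rule leave out 2 that tie with them on the count. None of the sites of these 10 held the CTCF core in both replicates, while 13.1% of all shared sites did. Values among these sites ran from 0.276 to 3.66 in replicate 1 and from 0.367 to 5.23 in replicate 2, so none of them reached the strongest sites.

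Genes with more shared sites more often had an open promoter. A promoter peak in both replicates was listed for 59.5% of genes with no shared site (58.7% to 60.2%), 69.8% with 1, 77.1% with 2 and 81.6% with 3 or more (74.5% to 87.4%). By room around the gene, the share without and with a shared site was 74.4% and 76.4% for genes with up to 2 kb of eligible sequence, 68.7% and 71.5% at 2 to 5 kb, 63.6% and 75.6% at 5 to 10 kb, and 33.3% and 63.3% over 10 kb. The part of the amount of eligible sequence in this was not tested. Where the promoter had a peak, most sites were lower. Of the shared sites, 2676 had a nearest gene with a promoter peak in both replicates, and 440 of these (16.4%) were higher than it in both. For 824 (22.6%) no promoter peak of the nearest gene was listed in either replicate, and these sites had median values of 0.834 and 0.868, against 0.976 and 1.05 where the promoter had one in both. Per gene, the highest shared site was above the promoter in both replicates at 1187 of 2854 genes (41.6%), counting the 682 genes (23.9%) with no promoter peak listed in either. A promoter peak here is one within 1 kb of the start of any transcript of the gene, noncoding ones included.

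Lists of cell type and pathway genes were then read for shared sites, beside the 16.0% of all coding genes. With 9 to 21 genes of a list having eligible sequence, the intervals are wide, and no list was tested. In bulk tissue, a lower value from fewer cells of a type cannot be told from less open chromatin in each cell.

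Neuronal genes had sites that were mostly lower than their promoters. Of 16 pan-neuronal genes 5 had a shared site (31.2%, 11% to 58.7%), at Stmn2, Nefm, Nefh, Rbfox3 and Dnm1, and at all 5 the promoter was higher in both replicates. Dnm1, the dynamin of synaptic vesicle recycling, had a site of 1.22 and 1.26 with a CTCF core, just past the end of the gene. Its promoter stood at 3.97 and 5.57. The Stmn2 site likewise lay just past the end of its gene. Of 17 glutamatergic genes 6 had one (35.3%), with 12 sites in all. Slc17a7, the vesicular glutamate transporter of cortical and hippocampal neurons, had a site 1.66 kb upstream at 3.79 in replicate 1 and 5.01 in replicate 2. Its promoter had 0.926 in replicate 1 and no listed peak in replicate 2. That site, shown above, held a CTCF core, an E-box, a short NFI site and a T-box motif. Neurod2, a bHLH factor of maturing excitatory neurons, had 5 sites, the highest at 2.42 and 2.47, next to a promoter of 2.47 and 2.91. Camk2a, the kinase of synaptic plasticity, had 2 sites, the highest at 1.32 and 1.39, and Tbr1, a factor of deep-layer cortical neurons, 2, the highest at 1.13 and 1.08. The dentate granule cell list had 1 of 12 genes with a site, Dock10 (0.445 and 0.505). The CA pyramidal list had 4 of 14, and at Iyd (2.21 and 2.13) and Mpped1 (1.17 and 1.04) no promoter peak was listed in either replicate.

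Some interneuron genes had sites above their promoters. Of 16 GABAergic genes 8 had a shared site (50%, 24.7% to 75.3%), and at 5 of these 8 the highest site was above the promoter in both replicates, genes with no promoter peak included, beside 41.6% of all genes with a site. Sst, the peptide somatostatin, had 3 sites, the highest 8.10 kb upstream at 1.94 and 2.24, while its promoter had no listed peak in replicate 1 and one of 0.326 in replicate 2. Dlx5, a homeobox factor of interneuron precursors, had a site of 1.46 and 1.66 and a promoter of 0.815 in replicate 2 only. Dlx2, of the same family, had 3, the highest at 0.933 and 1.35, above its promoter at 0.658 and 0.978. Vip, an interneuron peptide, had a site of 0.629 and 0.408 and no promoter peak in either. Gad2, which makes GABA, had sites of up to 0.332 and 0.685, near the 0.424 and 0.669 of its promoter.

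Several glial genes had sites next to promoters with no listed peak. Among genes with a site these were 3 of 7 oligodendrocyte, 4 of 8 microglial and 1 of 6 astrocyte genes, beside 23.9% of all genes with a site. With or without a site, a promoter peak was listed in both replicates for 8 of 17 oligodendrocyte, 4 of 15 microglial and 12 of 15 astrocyte genes. The share over all coding genes was 64.0%, so closed promoters at the oligodendrocyte and microglial genes are not shown to be particular to those with a site. The site was above the promoter in both replicates at 4 of the 7 oligodendrocyte and 3 of the 6 astrocyte genes, beside 41.6% of all. Of 14 oligodendrocyte genes 7 had a shared site (50%, 23% to 77.0%). Mog, a glycoprotein of the outer myelin sheath, had the highest, 5.51 kb upstream at 4.70 and 4.75. Mobp, another myelin protein, had one at 1.69 and 1.93 that held a CTCF core and an AP-1 motif. No promoter peak was listed in either replicate at Mog or Mobp. Cldn11, the claudin of myelin tight junctions, had 1.53 and 1.27, with a promoter of 0.717 in replicate 2 only. The lineage factors Olig1 (1.33 and 1.64) and Olig2 (0.636 and 0.701) had sites below their promoters. Of 14 microglial genes 8 had a shared site (57.1%, 28.9% to 82.3%), and at 7 of them it was above the promoter in both replicates, 4 of these having no promoter peak, beside 41.6% of all genes with a site. These included the fractalkine receptor Cx3cr1 (1.57 and 2.04, promoter 0.417 in replicate 1 only), the lipid receptor Trem2 (1.38 and 2.06), the complement gene C1qc (1.38 and 1.74) and Ctss, a lysosomal protease (1.40 and 1.48). No promoter peak was listed at Trem2, C1qc, C1qb or Aif1 in either replicate. The exception was Sall1, the microglial identity factor, at 0.643 and 1.07 against a promoter of 1.42 and 2.34. Of 12 astrocyte genes 6 had one (50%), the highest at Clu, a secreted chaperone (2.11 and 1.95, promoter 4.10 and 4.58). Fgfr3 (1.44 and 1.64) and the gap junction gene Gja1 (1.22 and 1.32) were above their promoters. The endothelial and mural list had 1 of 15 genes with a site, Slc2a1, the glucose transporter of the blood-brain barrier (0.686 and 0.938).

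**Figure D5:**
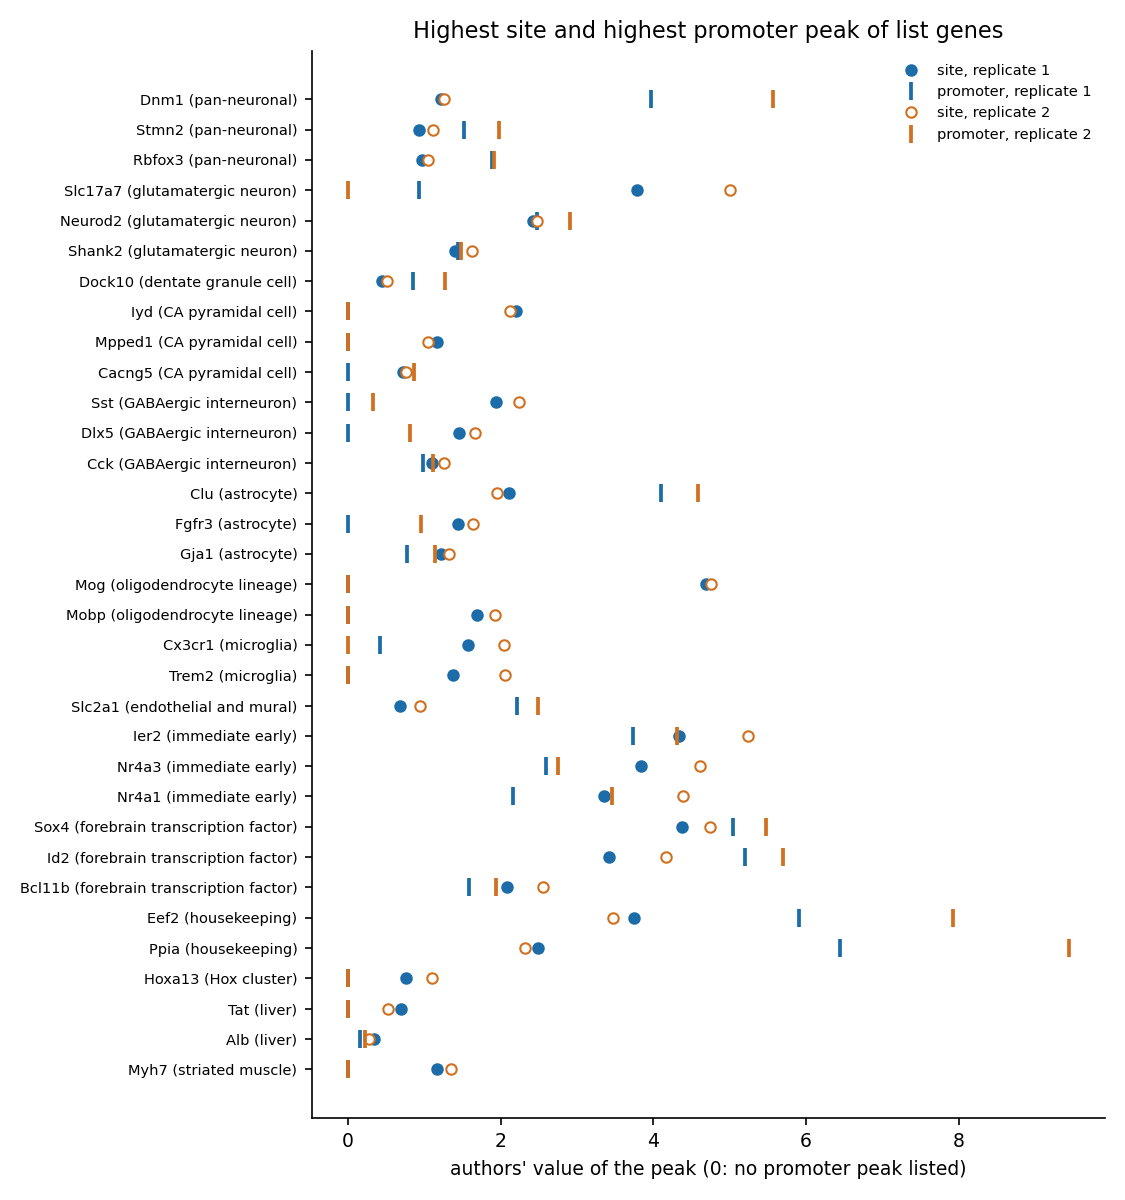
Authors' value (x axis) of the highest shared site (circles) and of the highest promoter peak (vertical ticks) for genes of each list (y axis), replicate 1 blue, replicate 2 orange; a tick at 0 means that no promoter peak was listed. Circles lie to the right of the ticks at Slc17a7, Sst, Dlx5, Mog, Mobp, Cx3cr1 and Trem2 and to the left at Dnm1, Clu, Eef2 and Ppia.

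Immediate early genes, which neuronal activity induces, were the list most often with a site. Of 21 genes 13 had one (61.9%, 38.4% to 81.9%), with 20 sites. All 22 genes of the list had a promoter peak in both replicates, with or without a site. At 4 of the 13 the highest site was above the promoter in both replicates, beside 41.6% of all genes with a site. The highest lay 1.25 kb upstream of Ier2 (4.34 and 5.24, promoter 3.73 and 4.31) and held an ETS motif and a GC box. The nuclear receptor genes Nr4a3 (3.83 and 4.61) and Nr4a1 (3.35 and 4.39) and the zinc-finger gene Egr3 (3.12 and 3.77) also had a site above the promoter. Junb (2.81 and 3.65), Fos (1.17 and 1.05) and Arc, a synaptic capsid-like protein (1.37 and 1.26), had sites below theirs. Of 17 forebrain transcription factor genes 7 had a site (41.2%), and these 7 held 21 sites. Sox4, a factor of young neurons (4.38 and 4.74), and Id2 (3.42 and 4.17) had the highest, both below their promoters. Bcl11b, a factor of deep-layer and dentate neurons, had 2.09 and 2.55, above its promoter at 1.58 and 1.94.

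The control lists did not all stand apart from the neural ones. Of 14 housekeeping genes 6 had a shared site (42.9%), with 15 sites, among them the elongation factor Eef2 (3.74 and 3.47) and Ppia (2.49 and 2.32). By sites per Mb the housekeeping list, at 135, lay between the forebrain list at 147 and the immediate early list at 98.4, and all coding genes stood at 25.9. Lists of other tissues stood below the 16.0% of all coding genes, but with intervals that include it. A shared site was found at 1 of 13 Hox genes (7.69%, 0.195% to 36.0%), at the end of a cluster near Hoxa13 (0.757 and 1.1). Of 14 liver genes 2 had one (14.3%, 1.78% to 42.8%), Tat (0.693 and 0.530) and Alb (0.339 and 0.269). Of 9 striated muscle genes 1 had one (11.1%, 0.281% to 48.2%), Myh7 (1.17 and 1.35). At Hoxa13, Tat and Myh7 no promoter peak was listed, and the low peak at Alb of 0.156 and 0.220 stood at the start of a noncoding transcript.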

How the data were processed

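DNase-seq of 2 replicates of 1 group was used as deposited. The signal per peak was made by the authors for each library without pooling, per the file headers and descriptions, with no stated unit. The p-value columns deposited by the authors are false discovery rates: stretches of raised cut rate appear only below 0.05, and footprints carry a single rate. The alignment was to mm10; the aligner, the caller and the read depth were not given in the sources used here, so precision is given by intervals on counts of peaks.

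Peaks of the longer list were placed against GENCODE M21 on GRCm38.p6 by midpoint, with the start of every annotated transcript. Eligible sequence had no N, lay outside gene bodies and was over 1 kb from any start. Motif windows were 200 bp. RefSeq starts were those of mRNA, lncRNA and other transcripts in the RefSeq annotation of the same assembly. Soft-masked bases stood for repeats. Gene lists (15, with 261 entries) and the 22 motifs were written by hand, and Nov was read as Ccn3. The overlap, distance and motif code was tested on simulated data. Python 3.11.15, numpy 2.4.6, pandas 2.3.3 and scipy 1.17.1 were used. Shares have exact 95% binomial intervals (Clopper-Pearson). No test was run, since there is 1 group.

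The sites, lists and rules were chosen with earlier results of these data known. Named genes were those of the 10 highest shared sites, the 10 genes with the most shared sites, up to 3 genes per list with the highest site, the highest site per motif, the 5 sites with the most footprints and the 3 highest sites of each replicate that no peak of the other overlaps. A few of these genes are left out of the text and figures. Other list genes with a site were named after their values were seen. The alternatives were each replicate alone, the shorter peak lists, gene 5′ ends as the only starts, the peak edge for distance, stricter or member-only overlap, any footprint overlap and motif search in the whole peak.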

Additional observations from a re-analysis of the deposited data

How the results depend on the processing

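No paired analysis was possible because the study has 1 group, so no groups share replicate numbers and no result comes from a test. The main values here are means of both replicates. With the shorter peak lists the number of sites was 2999 in place of 5438, their density 21.3 in place of 38.6 per Mb, their median percentile rank 52.6 in place of 54.8, and list genes with a shared site 47 in place of 76. The shares with a footprint and with the CTCF core were 87.5% and 14.5% in place of 77.6% and 10.0%. Counting overlap only from 50% of both peaks gave 55.3% overlapped sites in place of 71.4%, and counting any footprint overlap gave 78.3%, which is beyond the small spread between replicates of 0.134 points. With each replicate alone, the number of sites ran from 4867 to 6009, the overlapped share from 64.0% to 78.9%, the density from 34.5 to 42.6 per Mb, the rank from 54.6 to 55.0, the footprint share from 77.5% to 77.7%, and the CTCF share from 9.72% to 10.3%. List genes nearest to any site of the replicate, shared or not, ran from 89 to 90, a looser count than the 76. Gene 5′ ends as the only starts gave 4747.5 sites and a CTCF share of 9.61%. The other settings tried moved no value by more than the spread between replicates. Replicate 2 has fewer peaks, the read depth of neither is given, and reads of a hybrid placed on 1 parent's genome may be lost where the other parent differs, which was not tested.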
